A study of Mus musculus with 20 samples.

Results

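The genes described here encode the subunits of the proteasome, its activators and inhibitor, and the chaperones that assemble it. They were chosen by name: every row of the count table whose symbol starts with Psma, Psmb, Psmc, Psmd, Psme, Psmf or Psmg and a digit, which gave 49 of 20914 genes. No -ps pseudogene symbol was in the table. The rule used no measured value, but the family was proposed with the difference between the genotypes already known, so counts over the family are descriptions and no test was made over it. The study compared livers of male mice in which both Hsd17b12 alleles carried lox sites. Knockout (KO) mice had the genotype HSD17B12lox/lox;Alb-CreCre/WT, with 1 copy of Cre under the albumin promoter, a hepatocyte promoter. Wild-type (WT) mice had the genotype HSD17B12lox/lox;Alb-CreWT/WT and carried the same lox sites without Cre. The strain label was LiB12cKO for both, the age was 8 weeks, and 10 mice per genotype gave 1 library each, made from left lateral lobe RNA. Because Cre was present in KO mice alone, loss of Hsd17b12 and presence of Cre cannot be told apart.

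The proteasome degrades proteins that carry ubiquitin chains. Its barrel-shaped core particle is built from rings of alpha and beta subunits, and beta subunits carry the proteolytic sites. A regulatory particle, made of a base with a ring of ATPases and a lid, binds ubiquitin chains, removes them, unfolds the substrate and threads it into the core. Interferon-inducible beta subunits can replace the constitutive catalytic ones and form the immunoproteasome, known for producing peptides for antigen presentation. In mammalian cells the transcription factor Nfe2l1 raises constitutive proteasome genes together when proteasome activity is short, by binding antioxidant response elements, and the liver depends on this factor.

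Promoter sequences are shown for 5 genes of the 35 that were higher in KO: Psmb5, Psmb6 and Psme4 have an antioxidant response element core near the start, and Psmd5 and Psmd8, which differed most between the genotypes, have none. The windows come from RefSeq on GRCm38.p6 and run 5′ to 3′ on the gene's strand, with 250 bases before the start and 50 after it. Capitals mark the motif TGACNNNGC on either strand. The windows are Psmb5 at chr14:54617946-54618245 (minus strand), Psmb6 at chr11:70525107-70525406 (plus strand), Psme4 at chr11:30771525-30771824 (plus strand), Psmd8 at chr7:29180624-29180923 (minus strand) and Psmd5 at chr2:34870913-34871212 (minus strand).
Psmb5: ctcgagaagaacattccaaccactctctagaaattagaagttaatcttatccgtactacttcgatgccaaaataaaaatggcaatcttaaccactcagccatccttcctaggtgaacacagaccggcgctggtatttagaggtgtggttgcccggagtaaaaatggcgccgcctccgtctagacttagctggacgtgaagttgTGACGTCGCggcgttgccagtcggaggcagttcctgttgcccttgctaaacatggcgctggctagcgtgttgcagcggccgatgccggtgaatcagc
Psmb6: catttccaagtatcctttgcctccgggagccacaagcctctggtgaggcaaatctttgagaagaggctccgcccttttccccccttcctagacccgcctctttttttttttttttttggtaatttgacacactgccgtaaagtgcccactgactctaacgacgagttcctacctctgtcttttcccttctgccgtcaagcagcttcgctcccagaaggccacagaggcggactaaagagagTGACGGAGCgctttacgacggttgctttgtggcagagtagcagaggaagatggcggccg
Psme4: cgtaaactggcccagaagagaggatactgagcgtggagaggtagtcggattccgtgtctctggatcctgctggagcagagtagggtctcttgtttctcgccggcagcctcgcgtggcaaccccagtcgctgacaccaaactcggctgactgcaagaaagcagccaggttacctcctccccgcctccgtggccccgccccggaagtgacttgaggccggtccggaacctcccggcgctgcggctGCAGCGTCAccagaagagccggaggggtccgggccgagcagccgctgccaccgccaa
Psmd8: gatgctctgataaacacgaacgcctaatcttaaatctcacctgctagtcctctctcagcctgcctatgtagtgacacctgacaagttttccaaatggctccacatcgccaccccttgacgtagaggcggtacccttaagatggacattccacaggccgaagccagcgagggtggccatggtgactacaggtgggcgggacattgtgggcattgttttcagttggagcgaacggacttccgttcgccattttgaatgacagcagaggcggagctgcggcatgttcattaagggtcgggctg
Psmd5: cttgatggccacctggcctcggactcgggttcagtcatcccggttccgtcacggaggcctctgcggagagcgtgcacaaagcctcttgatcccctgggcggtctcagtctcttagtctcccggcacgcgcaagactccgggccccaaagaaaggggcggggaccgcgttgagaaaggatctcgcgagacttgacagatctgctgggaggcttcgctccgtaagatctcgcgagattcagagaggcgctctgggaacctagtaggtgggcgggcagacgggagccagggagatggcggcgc

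The Psmb5 match starts at position -47 from the RefSeq start, the Psmb6 match at position -9, and the Psme4 match, on the opposite strand, at position -7. RefSeq windows were found for 41 of the 49 genes and numbered 44, since some genes have more than 1 start. The windows held the gene start of the deposited annotation in 38 cases. TGACNNNGC was in 6 of the 44 windows (13.6%), against 12.4% of all 32851 promoter windows, and a link to the fold changes was not tested. Besides the 3 printed matches it was found near the start at position -31 in Psmd9, which was lower in KO with TMM factors, and far upstream at position -227 in Psmc6 and -247 in Psmd12. A CCAAT box (CCAAT on either strand) was in 34.1% of the family's windows and in 37.4% of all windows. The core of the interferon-stimulated response element (GAAA, any 2 bases, then GAAA, on either strand) was in 5 of the 44 windows (11.4%), against 3.44% of all windows. Those 5 windows belonged to Psmb3, Psmd4, Psmd9, Psme1 and Psmg4, and none of the 3 windows of the immunoproteasome genes held it. Median GC content was 58.2% in the family's windows and 52.7% in all windows.

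Levels are given as CPM, a fragment count scaled to library size, here with TMM factors and equal to the deposited normalised values, and as RPKM where genes are set side by side. Fold changes are KO over WT, as log2 values with the standard error (SE) of the fit. A gene was called when its adjusted p from edgeR's quasi-likelihood test, over all 13670 genes tested, was under 0.05. The targeted gene Hsd17b12, which encodes an enzyme of long-chain fatty acid elongation, had a lowest, median and highest value of 44.0, 47.9 and 51.3 CPM in KO livers, against 123, 155 and 177 CPM in WT livers. Its groups did not overlap, and its log2 fold change was -1.66 ± 0.0644 (SE, edgeR, adjusted p = 3.85e-14). Assigned fragments numbered 16693195 to 29124124 per library. The TMM factors of the genotypes did not overlap, at 1.05 to 1.24 in KO and 0.787 to 0.974 in WT libraries. Scaling by library size alone raised the median log2 fold change of all genes tested by 0.47, from -0.025 to 0.44, so directions that turn with the scaling are named below.

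Markers of hepatocytes and of several other cell types moved with genotype too. The counts of called markers stand beside 28.2% of all genes tested higher and 31.0% lower, or 68.4% and 6.71% with library size scaling. A count near these shares does not set a cell type apart. All 8 hepatocyte markers fell, and their summed level was 50460 to 62748 CPM in KO livers, against 85570 to 114745 CPM in WT livers. Of 11 macrophage markers, 9 rose, with a sum of 381 to 682 CPM in KO and 200 to 376 CPM in WT livers. Summed stellate cell markers were at 266 to 486 CPM in KO and 145 to 279 CPM in WT livers (5 of 6 higher), and biliary markers at 48.9 to 189 CPM in KO and 23.9 to 56.0 CPM in WT livers (2 of 5 higher, 1 lower). Endothelial markers summed to 154 to 195 CPM in KO and 106 to 203 CPM in WT livers (3 of 6 higher), and dendritic cell markers to 10.6 to 20.3 CPM in KO and 7.95 to 14.3 CPM in WT livers (2 of 6 higher). B lymphocyte markers summed to 5.50 to 20.004 CPM in KO and 2.93 to 14.2 CPM in WT livers (1 of 4 tested higher), and neutrophil markers to 3.49 to 10.002 CPM in KO and 1.22 to 7.43 CPM in WT livers (none of 3 tested called). T and NK cell markers summed to 2.36 to 19.8 CPM in KO and 3.37 to 16.2 CPM in WT livers, with 9 of 10 averaging under 1 CPM. The 1 that was tested, Cd4, fell by 1.42 on the log2 scale ± 0.207 (SE, edgeR, adjusted p = 4.43e-06), and was at -0.93 with library size scaling. Cd4 does not stand for the list. The untested Cd3d, Cd3e and Cd3g averaged 0.334, 0.609 and 0.465 CPM in KO livers, against 0.335, 0.624 and 0.430 CPM in WT livers. Under that scaling 5 hepatocyte markers were lower, 10 macrophage, 5 stellate, 3 biliary, 6 endothelial, 5 dendritic cell, 1 B lymphocyte and 1 neutrophil markers were higher, and no biliary marker was lower. No marker of these lists was at 0 in all mice. In whole tissue, fewer cells of a type and less RNA per cell cannot be told apart, and the part of these shifts in the results below was not tested.

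Of the 49 genes, 47 passed the filter on low counts. Of these, 35 were higher in KO, 3 were lower and 9 were not called, where 28.2% of all genes tested were higher and 31.0% were lower. Every KO value lay above every WT value for 23 genes and below for 1 gene, against 7.2% and 6.12% of all genes tested. The median log2 fold change of the 47 genes was 0.51, against -0.025 over all genes. With library size scaling the family had 44 genes higher, none lower, also at an unadjusted p under 0.05, and a median of 0.98, where 68.4% of all genes tested were higher and 6.71% lower. Under that scaling 37 genes of the family had every KO value above every WT value and none the reverse, against 24.9% and 1.03% of all genes tested. The calls followed the parts of the particle: all 31 constitutive subunits of core, base and lid with a Psm name were higher, while the 3 immunoproteasome subunits were not called and assembly chaperones moved in both directions. The downward calls were lost or reversed with library size scaling. The lid subunit Sem1 and the ubiquitin receptor Adrm1 fall outside the naming rule and are not among the 31; they were read with the associated factors. The range of the 31 subunits was 1.13-fold to 2.25-fold, with a median of 1.65-fold.

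**Figure D1:**
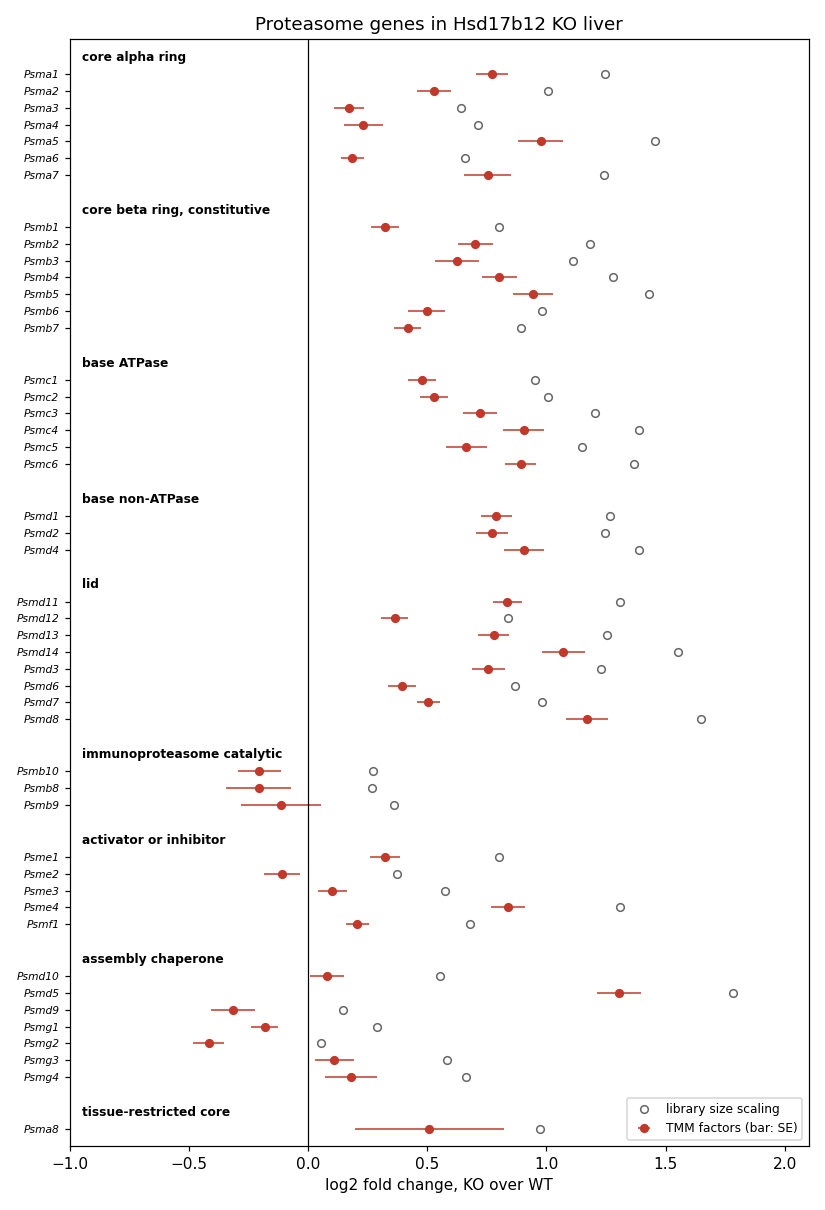
Log2 fold change, KO over WT, of the 47 proteasome genes tested, by role, with TMM factors (filled points, bars give the SE) and with library size scaling (open circles). All 31 constitutive core, base and lid subunits lie right of 0 under both scalings, whereas the 3 immunoproteasome subunits, Psme2, Psmg1, Psmg2 and Psmd9 lie left of 0 with TMM factors and right of 0 with library size scaling.

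The alpha ring forms the gated ends of the core particle. All 7 of its genes rose, by a log2 fold change of 0.17 (Psma3) to 0.98 (Psma5) with a median of 0.53, and 2 of the 7 had no overlap between genotypes. Psma5 had a lowest, median and highest value of 25.8, 37.4 and 44.0 CPM in KO livers, against 15.01, 18.3 and 22.3 CPM in WT livers. Every KO value was above every WT value, and the log2 fold change was 0.98 ± 0.0947 (SE, edgeR, adjusted p = 1.69e-08). Psma5 also had the lowest RPKM of the 31 constitutive subunits in both genotypes, at 29.3 ± 5.04 in KO and 14.9 ± 1.75 in WT livers (SD, n = 10 each). Psma1 was at 122, 161 and 188 CPM in KO livers, against 81.4, 92.1 and 105 CPM in WT livers. These ranges were apart as well, with a log2 fold change of 0.77 ± 0.0674 (SE, edgeR, adjusted p = 3.65e-09). Psma7 was at 145, 208 and 244 CPM in KO livers, against 89.6, 120 and 151 CPM in WT livers. Its groups met at the edge, where 2 KO mice lay below the highest WT mouse, and the log2 fold change was 0.75 ± 0.0985 (SE, edgeR, adjusted p = 1.10e-06).

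The other alpha genes rose less. Psma2 had a log2 fold change of 0.53 and Psma4 of 0.23. Psma3 and Psma6, chosen after their values were seen, had the smallest changes of the ring. Psma3 was at 35.3, 44.2 and 48.3 CPM in KO livers, against 35.1, 38.2 and 41.2 CPM in WT livers, with a log2 fold change of 0.17 ± 0.0622 (SE, edgeR, adjusted p = 0.0226). Psma6 was at 103, 113 and 132 CPM in KO livers, against 93.2, 102 and 111 CPM in WT livers, with a log2 fold change of 0.19 ± 0.0486 (SE, edgeR, adjusted p = 0.00239). In both the groups overlapped. The 7 alpha subunits stand in equal number in each ring, yet their mean RPKM spanned 29.3 to 229 in KO and 14.9 to 135 in WT livers.

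The constitutive beta ring holds the catalytic subunits Psmb5 (chymotrypsin-like activity), Psmb6 (caspase-like) and Psmb7 (trypsin-like) beside 4 non-catalytic subunits. All 7 genes rose, by a log2 fold change of 0.32 (Psmb1) to 0.94 (Psmb5) with a median of 0.62. Psmb5 was at 117, 152 and 179 CPM (lowest, median and highest) in KO livers, against 64.7, 79.5 and 92.4 CPM in WT livers. No KO mouse came down to the WT range, and the log2 fold change was 0.94 ± 0.0835 (SE, edgeR, adjusted p = 4.47e-09). Psmb6 was at 133, 172 and 218 CPM in KO livers, against 104, 124 and 144 CPM in WT livers. In its case 1 KO mouse lay below the highest WT mouse, with a log2 fold change of 0.50 ± 0.0779 (SE, edgeR, adjusted p = 1.14e-05). Psmb7 was at 179, 222 and 245 CPM in KO livers, against 145, 167 and 176 CPM in WT livers. Its ranges were apart by a narrow margin, with a log2 fold change of 0.42 ± 0.0582 (SE, edgeR, adjusted p = 2.62e-06). The differences between the 3 catalytic subunits were not tested.

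Among the non-catalytic beta subunits, Psmb4 and Psmb2 rose most. Psmb4 was at 184, 238 and 302 CPM in KO livers, against 126, 137 and 154 CPM in WT livers. It had the highest mean RPKM of the family in KO livers, 252 ± 36.9 (SD, n = 10), where WT livers had 144 ± 8.69 (SD, n = 10), and its log2 fold change was 0.80 ± 0.0740 (SE, edgeR, adjusted p = 8.18e-09). Psmb7 had 224 ± 19.4 RPKM in KO and 168 ± 12.4 RPKM in WT livers (SD, n = 10 each), the highest level of the family in WT livers. Psmb2 was at 82.4, 105 and 126 CPM in KO livers, against 57.3, 65.8 and 76.3 CPM in WT livers. Both Psmb4 and Psmb2 were higher in every KO mouse than in any WT mouse, and Psmb2 had a log2 fold change of 0.70 ± 0.0741 (SE, edgeR, adjusted p = 5.67e-08). Psmb3 and Psmb1 had log2 fold changes of 0.62 and 0.32, and their groups overlapped.

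**Figure D2:**
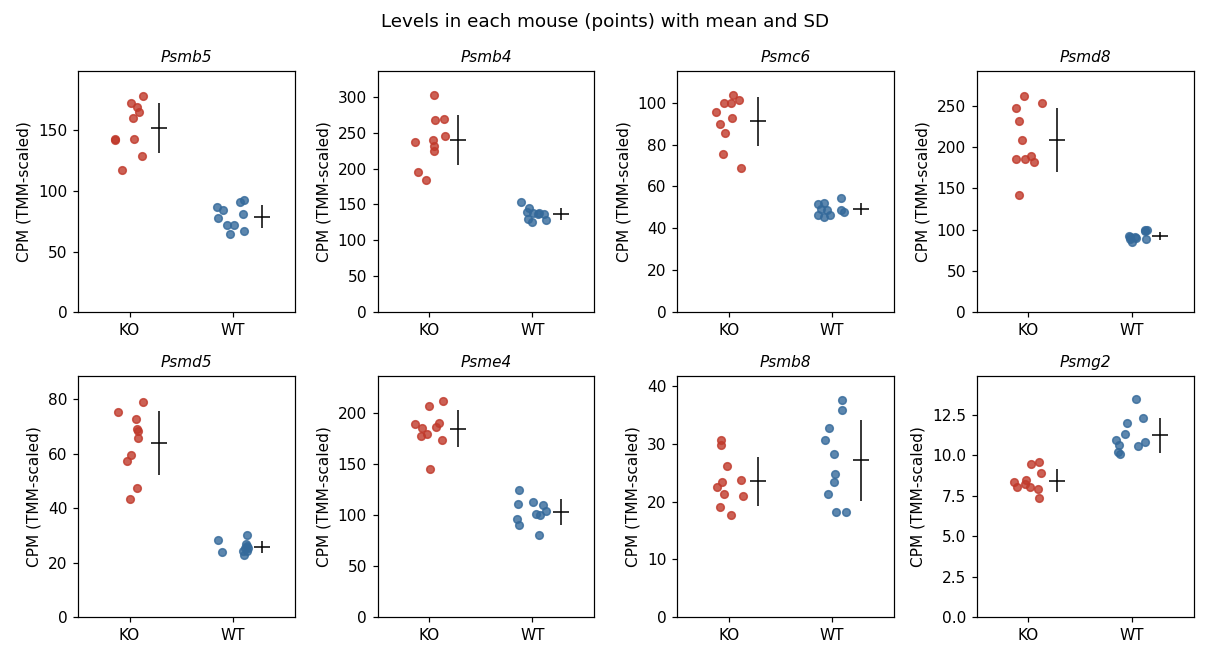
TMM-scaled CPM of 8 proteasome genes in each mouse (points; KO left, WT right), with mean and SD beside them; axes start at 0. In Psmb5, Psmb4, Psmc6, Psmd8, Psmd5 and Psme4 all KO points lie above all WT points, in Psmb8 the genotypes overlap, and in Psmg2 all KO points lie below all WT points, a direction that turns to a log2 fold change of 0.053 with library size scaling.

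The 6 ATPases of the base, which unfold substrates and open the gate of the core, rose without exception and without overlap between genotypes. Their log2 fold changes ran from 0.48 (Psmc1) to 0.90 (Psmc4), with a median of 0.69. Psmc6 was at 68.7, 94.1 and 104 CPM in KO livers, against 45.2, 48.7 and 54.3 CPM in WT livers. The WT mice kept close together and the lowest KO mouse stood above all of them, with a log2 fold change of 0.89 ± 0.0670 (SE, edgeR, adjusted p = 4.21e-10). Psmc4 was at 120, 158 and 187 CPM in KO livers, against 62.5, 88.6 and 97.0 CPM in WT livers. The gap between genotypes was wide, with a log2 fold change of 0.90 ± 0.0874 (SE, edgeR, adjusted p = 1.57e-08). Psmc3 was at 153, 197 and 240 CPM in KO livers, against 101, 121 and 130 CPM in WT livers. Its log2 fold change was 0.72 ± 0.0721 (SE, edgeR, adjusted p = 2.50e-08). Psmc5, Psmc2 and Psmc1 followed with log2 fold changes of 0.66, 0.53 and 0.48.

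The non-ATPase subunits of the base are the scaffolds Psmd1 and Psmd2 and the ubiquitin receptor Psmd4. Psmd4 was at 168, 215 and 256 CPM in KO livers, against 82.6, 114 and 136 CPM in WT livers. No overlap was seen, and the log2 fold change was 0.91 ± 0.0838 (SE, edgeR, adjusted p = 8.42e-09). Psmd1 was at 153, 195 and 230 CPM in KO livers, against 95.3, 113 and 126 CPM in WT livers, with a log2 fold change of 0.79 ± 0.0653 (SE, edgeR, adjusted p = 1.72e-09). Psmd2 was at 221, 297 and 333 CPM in KO livers, against 150, 171 and 192 CPM in WT livers, with a log2 fold change of 0.77 ± 0.0661 (SE, edgeR, adjusted p = 2.70e-09). Both scaffolds were higher in each KO mouse than in any WT mouse.

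The lid removes ubiquitin chains from the substrate, and its deubiquitinase is Psmd14. All 8 lid genes with a Psm name rose, by a log2 fold change of 0.36 (Psmd12) to 1.17 (Psmd8) with a median of 0.77, and 6 of the 8 had no overlap. Sem1, a small lid subunit with another name, chosen after its value was seen, was at 36.2, 46.1 and 52.6 CPM in KO livers, against 47.2, 50.5 and 65.2 CPM in WT livers. Its groups overlapped and it fell by 0.21 on the log2 scale ± 0.0703 (SE, edgeR, adjusted p = 0.0131), but was called higher at 0.27 with library size scaling. Psmd8, a lid subunit that joins late in assembly, was at 141, 199 and 262 CPM in KO livers, against 85.3, 91.5 and 99.5 CPM in WT livers. This was the largest change of the 31 constitutive subunits, 2.25-fold, with a log2 fold change of 1.17 ± 0.0886 (SE, edgeR, adjusted p = 4.71e-10). The coefficient of variation of Psmd8 was 18.6% among KO mice and 5.30% among WT mice. Psmd11, which links the lid to the base and the core, was at 117, 141 and 167 CPM in KO livers, against 66.6, 78.7 and 88.1 CPM in WT livers. All its KO values were above its WT values, with a log2 fold change of 0.84 ± 0.0617 (SE, edgeR, adjusted p = 3.09e-10). Psmd13 was at 91.8, 115 and 136 CPM in KO livers, against 63.1, 66.0 and 74.8 CPM in WT livers, and had a log2 fold change of 0.78 ± 0.0654 (SE, edgeR, adjusted p = 2.05e-09).

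Psmd14 and Psmd12 were picked after their values were seen, as the deubiquitinase and as the lid gene with the smallest change. Psmd14 was at 71.6, 99.0 and 114 CPM in KO livers, against 35.1, 48.4 and 54.7 CPM in WT livers. The groups were far apart, with a log2 fold change of 1.07 ± 0.0901 (SE, edgeR, adjusted p = 2.10e-09). Psmd12 was at 84.3, 97.6 and 114 CPM in KO livers, against 64.1, 76.1 and 85.9 CPM in WT livers, so that 1 KO mouse lay below the highest WT mouse. Its log2 fold change was 0.36 ± 0.0579 (SE, edgeR, adjusted p = 1.44e-05). Psmd3, Psmd7 and Psmd6 had log2 fold changes of 0.76, 0.50 and 0.39.

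Mouse by mouse, the same few animals were the extremes for most of the 31 constitutive subunits. The subunits' median log2 level over the WT mean ran from 0.38 in KO_416 to 0.97 in KO_453, against -0.18 in WT_441 to 0.11 in WT_406. Among KO mice, KO_416 was the lowest for 20 of the 31 subunits and KO_391 for the other 11, whereas KO_453 was the highest for 24. Among WT mice, WT_441 was the lowest for 19 subunits and WT_406 the highest for 11. The subunits took 0.394% to 0.627% of assigned fragments in KO libraries (mean 0.534% ± 0.0740, SD, n = 10) and 0.230% to 0.251% in WT libraries (mean 0.241% ± 0.00795, SD, n = 10). These shares use no TMM factor, and the genotypes did not overlap. They amount to library size scaling, under which 24.9% of all genes tested had every KO value above every WT value. The KO mean was 2.21 times the WT mean for these shares, and 1.57 times for the summed RPKM, which uses TMM factors. KO_391 lay nearest to WT livers in the share of assigned fragments and also in its TMM factor of 1.05. Without KO_391 the 31 subunits were all still higher with a median log2 fold change of 0.78.

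**Figure D3:**
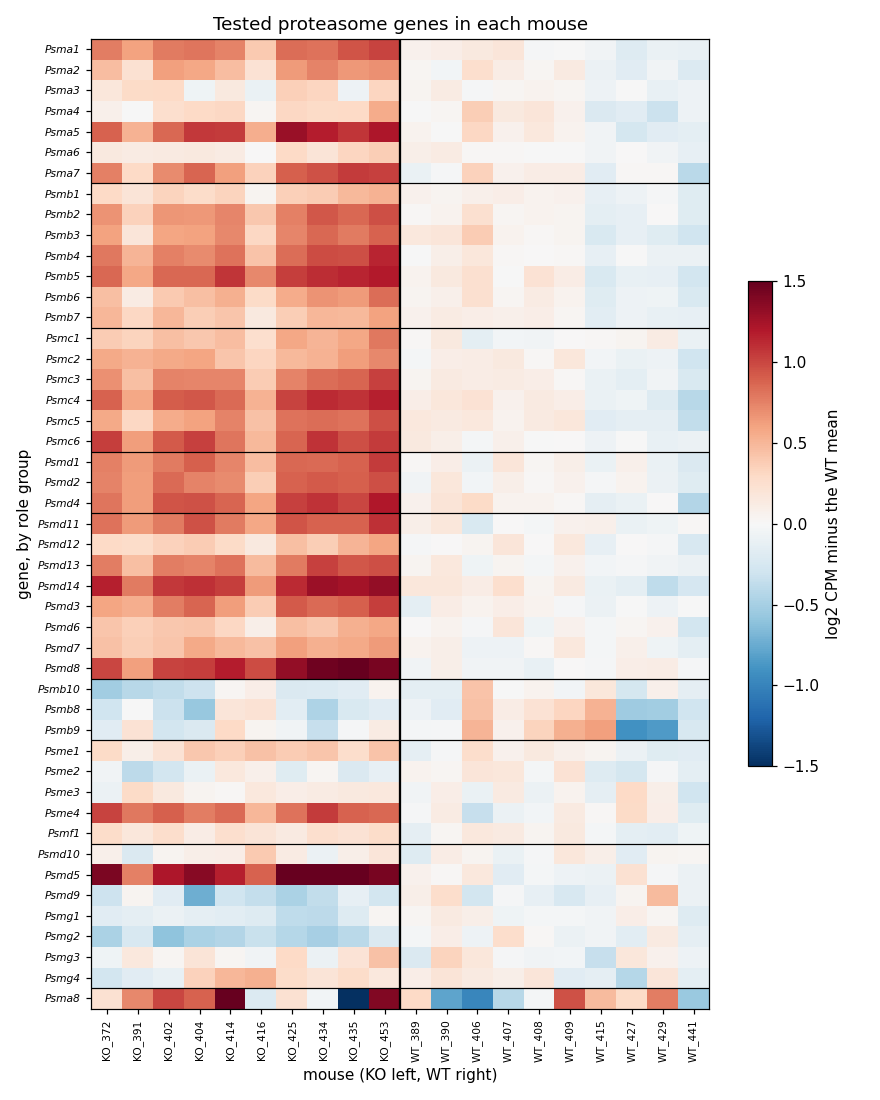
Log2 CPM of the 47 tested proteasome genes (rows, by role group, lines between groups) in each mouse (columns, KO left of the line, WT right) minus the gene's mean over WT mice; colours stop at 1.5 in either direction. The rows of core, base and lid subunits are red across the KO mice, palest in KO_416 and KO_391 and deepest in KO_453, and the immunoproteasome and most chaperone rows lack this pattern; blue rows such as Psmg2 turn direction with library size scaling.

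By their medians, regulatory particle genes had larger fold changes than core genes. Across the 17 regulatory subunits the median log2 fold change was 0.77 and 15 had no overlap, whereas across the 14 core subunits the median was 0.58 and 6 had no overlap. With library size scaling the medians were 1.25 and 1.06, but 17 regulatory and 13 core genes had no overlap, so that contrast in overlap nearly vanished. Every KO value lay above every WT value for 7.2% of all genes tested with TMM factors and for 24.9% with library size scaling. A ratio inside each library does not depend on library scaling, so the mean RPKM of the 17 regulatory genes was divided by that of the 14 core genes, a measure chosen after the data were seen. The ratio was 0.600, 0.617 and 0.631 (lowest, median and highest) in KO livers, against 0.486, 0.551 and 0.578 in WT livers. The genotypes did not overlap, at 0.618 ± 0.00997 in KO and 0.547 ± 0.0262 in WT livers (mean and SD, n = 10 each), and no test was made of this ratio. WT_406, which had the highest median subunit level among WT livers, had the lowest ratio of all. Its median log2 level over the WT mean was 0.25 for alpha, 0.24 for beta and 0.11 for ATPase genes. For the non-ATPase base and lid genes it was -0.041 and -0.038.

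The immunoproteasome subunits Psmb8, Psmb9 and Psmb10 take the places of Psmb5, Psmb6 and Psmb7. None of the 3 was called by edgeR, with 1 of 3 at an unadjusted p under 0.05 (Psmb10, p = 0.0318), and none was called by DESeq2. Their median log2 fold change was -0.21 with TMM factors and 0.27 with library size scaling, under which Psmb9 (0.36) and Psmb10 (0.27) were called higher. Psmb8 and Psmb9 are neighbours in the major histocompatibility region, at chr17:34198195-34201454 and chr17:34182099-34187330 on mm10. Psmb8 was at 17.7, 22.9 and 30.7 CPM in KO livers, against 18.2, 26.6 and 37.6 CPM in WT livers. The groups overlapped over nearly their whole range, with a log2 fold change of -0.21 ± 0.136 (SE, edgeR, adjusted p = 0.193; 0.27 with library size scaling). Psmb9 was at 13.4, 16.5 and 20.8 CPM in KO livers, against 9.01, 17.2 and 25.9 CPM in WT livers. The WT mice enclosed the KO mice at both ends, with a log2 fold change of -0.11 ± 0.166 (SE, edgeR, adjusted p = 0.572). Psmb10 was at 23.3, 28.8 and 35.9 CPM in KO livers, against 27.8, 32.8 and 44.9 CPM in WT livers. Its log2 fold change was -0.21 ± 0.0896 (SE, edgeR, adjusted p = 0.0533), and it was called lower with limma-voom (adjusted p = 0.0306) and when any 1 of KO_416, WT_389, WT_390, WT_427 and WT_441 was left out, with adjusted p from 0.0280 to 0.0440.

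The mean share of the immune subunit in each catalytic pair, as RPKM of the immune gene over the sum of both genes, was lower in KO livers. For Psmb8 with Psmb5 the immune share was 7.43%, 9.48% and 14.5% (lowest, median and highest) in KO livers, against 15.2%, 19.2% and 28.6% in WT livers. The genotypes did not overlap, at 10.1% ± 2.39 in KO and 19.5% ± 3.97 in WT livers (SD, n = 10 each). For Psmb10 with Psmb7 the share was 7.20%, 8.96% and 13.3% in KO livers, against 11.6%, 13.1% and 16.5% in WT livers, and the genotypes overlapped through the highest KO mouse. For Psmb9 with Psmb6 it was 8.09%, 10.3% and 16.0% in KO livers, against 9.12%, 15.3% and 23.7% in WT livers, with a broad overlap. WT_415 had the highest share in all 3 pairs. These shares were not tested, since both genes come from the contrast that led to the family's choice. Macrophage markers, a cell type known to carry immune subunits, were higher in KO livers as given above, while 9 of 10 T and NK cell markers averaged under 1 CPM, and the part of these cells in the shares was not tested.

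**Figure D4:**
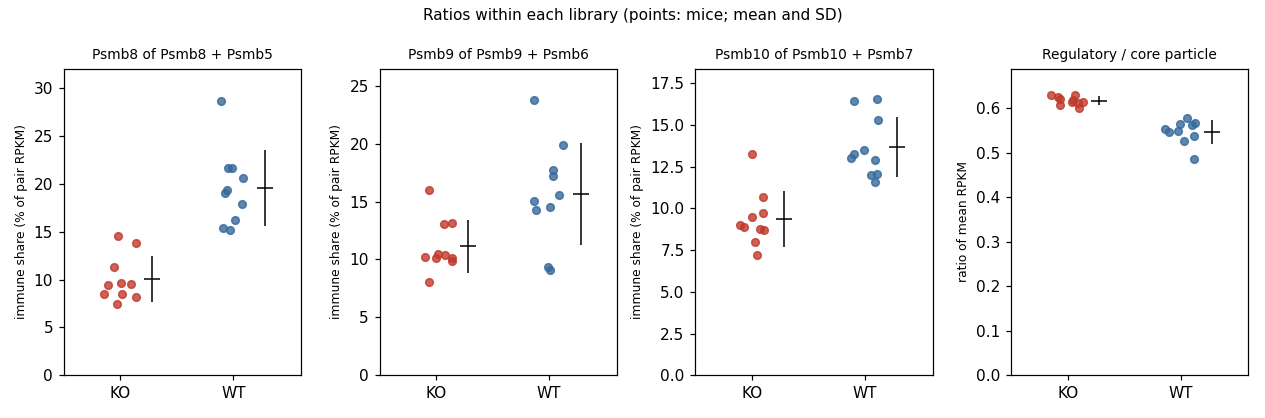
Share of the immune subunit in each catalytic pair (percent of the pair's RPKM) and ratio of mean RPKM of the regulatory to the core particle, in each mouse (points; KO left, WT right) with mean and SD; axes start at 0. The Psmb8 share is 7.43% to 14.5% in KO and 15.2% to 28.6% in WT livers without overlap, the Psmb9 and Psmb10 shares overlap, and the regulatory-to-core ratio is 0.600 to 0.631 in KO and 0.486 to 0.578 in WT livers.

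Alternative caps of the core behaved unevenly. Psme4 encodes a large single-chain activator of the nucleus and was the only 1 of the 5 activator and inhibitor genes without overlap. It was at 145, 186 and 212 CPM in KO livers, against 80.6, 102 and 125 CPM in WT livers, with a log2 fold change of 0.84 ± 0.0720 (SE, edgeR, adjusted p = 2.80e-09). Psme1 and Psme2 form the interferon-inducible ring-shaped cap together. Psme1 was at 94.7, 115 and 120 CPM in KO livers, against 78.2, 89.7 and 107 CPM in WT livers, and rose by a log2 fold change of 0.32 ± 0.0618 (SE, edgeR, adjusted p = 1.26e-04). Psme2 was at 14.0, 17.01 and 20.4 CPM in KO livers, against 15.3, 18.4 and 21.3 CPM in WT livers. It was not called, at -0.11 ± 0.0755 (SE, edgeR, adjusted p = 0.223), but was called higher at 0.37 with library size scaling. The RPKM ratio of Psme1 to Psme2 in each library was 6.58 ± 0.503 in KO and 4.89 ± 0.545 in WT livers (SD, n = 10 each), with overlapping ranges. It was not tested.

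Psme3, the activator of nuclear proteasomes, was at 48.9, 57.0 and 63.1 CPM in KO livers, against 42.2, 51.9 and 63.7 CPM in WT livers. The groups overlapped, and the log2 fold change of 0.10 ± 0.0610 was not called (SE, edgeR, adjusted p = 0.157). It was called higher when KO_372 or WT_427 was left out, at 0.15 (adjusted p = 0.0408) and 0.13 (adjusted p = 0.0491), and at 0.57 with library size scaling (adjusted p = 1.13e-08). The proteasome inhibitor gene Psmf1 was at 37.2, 40.6 and 41.6 CPM in KO livers, against 31.0, 34.6 and 38.5 CPM in WT livers. Despite an overlap at the edges it rose, by a log2 fold change of 0.21 ± 0.0494 (SE, edgeR, adjusted p = 0.00113).

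Assembly chaperones, which leave the finished particle, did not move together. Of 7 genes, 1 rose, 3 fell and 3 were not called, where 28.2% of all genes tested were higher and 31.0% lower. With library size scaling 5 were higher and none lower, where 68.4% of all genes tested were higher and 6.71% lower. Psmd5, which binds an ATPase of the base during its assembly and lies at chr2:34852089-34870962 on mm10, was at 43.6, 67.2 and 79.2 CPM in KO livers, against 22.8, 25.3 and 30.1 CPM in WT livers. This was the largest change of the family, 2.47-fold without overlap, with a log2 fold change of 1.31 ± 0.0931 (SE, edgeR, adjusted p = 1.95e-10). The other base chaperones differed from it: Psmd9 fell by 0.32 on the log2 scale ± 0.0931 (SE, edgeR, adjusted p = 0.00594; 0.15 and not called with library size scaling), and Psmd10 was not called at 0.080. Psmd9 was at 27.6, 37.1 and 47.5 CPM in KO livers, against 38.0, 44.3 and 63.7 CPM in WT livers, with overlapping groups. Psmg2, a member of a chaperone pair that builds the alpha ring, was at 7.38, 8.30 and 9.61 CPM in KO livers, against 10.1, 10.9 and 13.5 CPM in WT livers. All KO values lay below all WT values, and it fell by 0.42 on the log2 scale ± 0.0656 (SE, edgeR, adjusted p = 1.19e-05), a direction that turned to 0.053 and was not called with library size scaling. Its partner Psmg1, named for that pairing after its values were seen, had -0.18 ± 0.0552 (SE, edgeR, adjusted p = 0.00709), and library size scaling reversed it to a call at 0.29. Psmg3 and Psmg4, the other pair of the alpha ring, were not called at 0.11 and 0.18; both, and Psmd10, were called higher with library size scaling, and Psmg4 was called higher without KO_372 (0.25, adjusted p = 0.0462).

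The remaining names hold little signal in liver. Psma8, an alpha subunit of the testis, was at 0.197, 0.889 and 1.79 CPM in KO livers, against 0.313, 0.690 and 1.22 CPM in WT livers. It was not called at 0.51 ± 0.313 (SE, edgeR, adjusted p = 0.167), but was called higher at 0.97 with library size scaling (adjusted p = 0.00779). Psmb11, a beta subunit of the thymus, and Psmc3ip, a recombination protein that shares only the letters of the name, did not pass the filter on low counts. Psmb11 averaged 0.00388 CPM in KO livers and 0 in WT livers, and Psmc3ip averaged 0.317 CPM in KO and 0.478 CPM in WT livers. Exons of 8 of the 49 genes overlap those of another gene, among them Psmb5 with Mir686 over 109 bases, Psmc6 with Gm20266 over 552 bases and Psmd3 with Gm12356 over 384 bases. Psmg2 and Psmc2 overlap genes without a symbol, over 319 and 332 bases. Of the further genes named below, Ddi2, Syvn1, Rps27a, Vcp and Ubb also overlap exons of another gene, besides Usp14 and Tapbp. Fragments from such bases cannot be told apart, since no source used here states the strand setting.

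Genes that work with the proteasome were read from 4 lists. Their counts stand beside 28.2% of all genes tested higher and 31.0% lower, or 68.4% and 6.71% with library size scaling. Of 20 associated factors, 14 rose and 3 fell, with a median log2 fold change of 0.27; with library size scaling 19 were higher and none lower. Ubqln2, a shuttle that brings ubiquitinated proteins to the proteasome, was at 37.6, 47.3 and 60.2 CPM in KO livers, against 17.7, 21.4 and 23.2 CPM in WT livers. Its groups did not overlap, with a log2 fold change of 1.18 ± 0.0765 (SE, edgeR, adjusted p = 4.79e-11). Usp14, a deubiquitinase of the base whose exons overlap those of Thoc1, had a log2 fold change of 0.79 ± 0.0791, the scaffold Ecpas 0.74 ± 0.0697 and the thioredoxin-like factor Txnl1 0.60 ± 0.0612 (SE, edgeR, adjusted p = 2.65e-08, 1.15e-08 and 3.73e-08). All 3 were higher in every KO mouse than in any WT mouse. Adrm1, a ubiquitin receptor of the regulatory particle named after its value was seen, rose by 0.76 ± 0.0861 without overlap (SE, edgeR, adjusted p = 1.66e-07). Pomp, which matures the core particle, rose less, by 0.25 ± 0.0646 (SE, edgeR, adjusted p = 0.00207).

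Nfe2l1 itself was at 127, 136 and 151 CPM in KO livers, against 87.1, 109 and 143 CPM in WT livers. The groups overlapped and it rose by a log2 fold change of 0.32 ± 0.0724 (SE, edgeR, adjusted p = 6.40e-04). This factor is controlled largely after transcription, as a protein that is pulled out of the endoplasmic reticulum membrane and cut, which RNA levels do not measure. The list read for Nfe2l1 held 14 genes: Nfe2l2, a separate factor, the DNA-binding partners Maff, Mafg and Mafk, Nfe2l1 itself and genes of its processing and turnover. Of these 14 genes, 8 rose and 4 fell, with a median of 0.29. With library size scaling 12 were higher and none lower. The ATPase Vcp, which pulls the protein out of the membrane, and its cofactors Nploc4 and Ufd1 rose without overlap: Nploc4 by 0.91 ± 0.0661, Vcp by 0.67 ± 0.0621 and Ufd1 by 0.56 ± 0.0601 (SE, edgeR, adjusted p = 2.56e-10, 8.18e-09 and 7.24e-08). Syvn1 and Sel1l, the ligase and its adaptor in the membrane, named after their values were seen, fell by 0.67 ± 0.107 and 0.29 ± 0.0740 on the log2 scale (SE, edgeR, adjusted p = 1.49e-05 and 0.00168). With library size scaling Syvn1 was not called at -0.19 and Sel1l was called higher at 0.18. Mafk, a DNA-binding partner of the factor, was at 37.1, 46.1 and 69.9 CPM in KO livers, against 19.6, 23.7 and 27.8 CPM in WT livers. It had a log2 fold change of 1.09 ± 0.102 without overlap (SE, edgeR, adjusted p = 9.50e-09). Ddi2, the protease that cuts the factor, named after its value was seen, fell by 0.46 on the log2 scale ± 0.118 (SE, edgeR, adjusted p = 0.00202), and was at -0.0089 and not called with library size scaling. The separate factor Nfe2l2, named after its value was seen, rose by 0.79 ± 0.0971 without overlap (SE, edgeR, adjusted p = 4.56e-07).

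**Figure D5:**
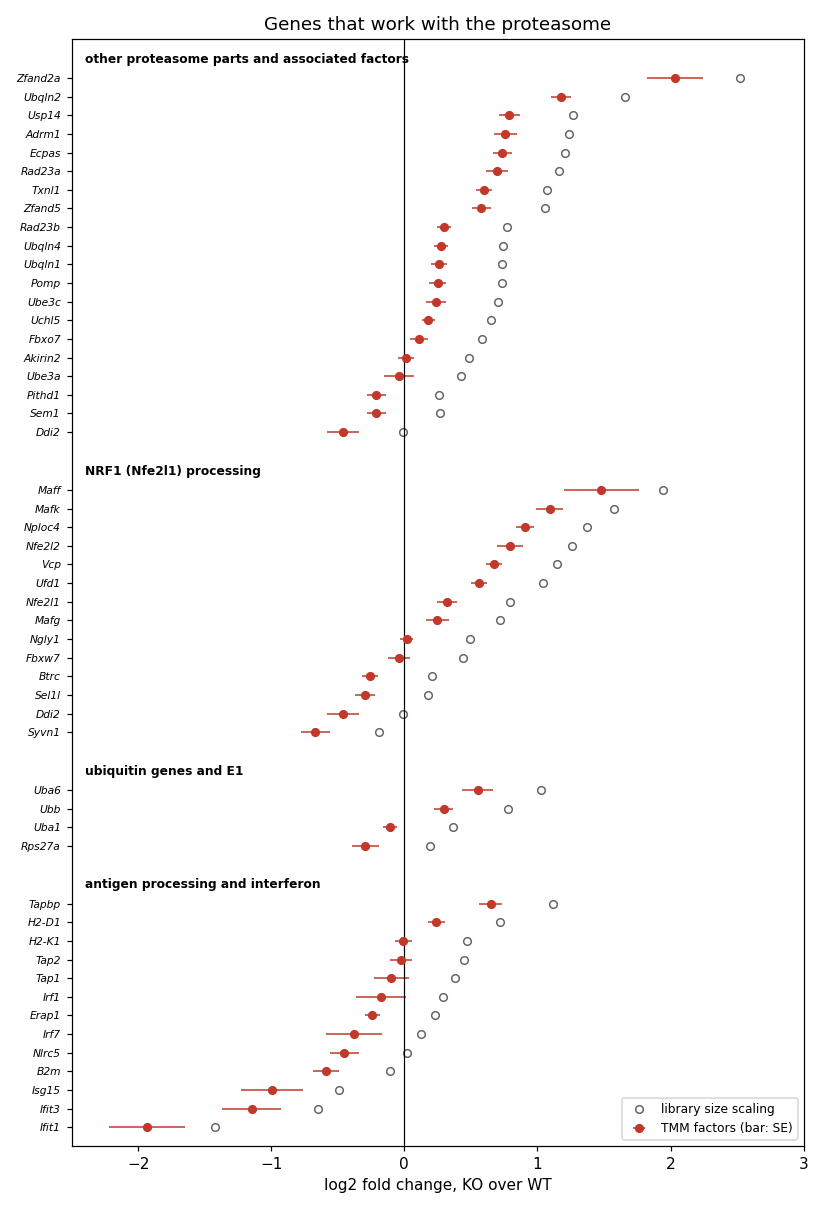
Log2 fold change, KO over WT, of genes that work with the proteasome, in 4 lists, with TMM factors (filled points, bars give the SE) and with library size scaling (open circles). Ubqln2, Nploc4 and Mafk lie right of 0 and Ifit1 left of 0 under both scalings, whereas Rps27a lies left of 0 with TMM factors and right of it with library size scaling.

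Of 4 ubiquitin and ubiquitin-activating genes, 2 rose and 1 fell; with library size scaling 3 were higher and none lower. Ubb, a polyubiquitin gene, was at 273, 311 and 403 CPM in KO livers, against 201, 257 and 287 CPM in WT livers. Its groups overlapped, and it rose by a log2 fold change of 0.29 ± 0.0743 (SE, edgeR, adjusted p = 0.00177). Uba6, an activating enzyme, rose by 0.55 ± 0.118 (SE, edgeR, adjusted p = 3.81e-04). The other activating enzyme, Uba1, was not called at -0.11 ± 0.0533 (SE, edgeR, adjusted p = 0.0866), was called lower with limma-voom and when WT_389 or WT_406 was left out (adjusted p = 0.0264, 0.0455 and 0.0271), and was called higher at 0.36 with library size scaling. Rps27a, which encodes ubiquitin fused to a ribosomal protein, fell by 0.29 on the log2 scale ± 0.104 (SE, edgeR, adjusted p = 0.0193). That call was lost when KO_372, KO_391 or KO_416 was left out (adjusted p = 0.0624, 0.0590 and 0.0510), and the gene was at 0.19 and not called with library size scaling. Levels of the ubiquitin genes are uncertain because their ubiquitin sequences are near-identical.

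Of 13 antigen processing and interferon genes, 2 rose and 6 fell, with a median of -0.24; with library size scaling 6 were higher, 3 were lower and the median was 0.23. Ifit1, an interferon-induced gene, was at 3.73, 4.49 and 6.26 CPM in KO livers, against 5.64, 12.5 and 37.0 CPM in WT livers, and fell by 1.93 on the log2 scale ± 0.285 (SE, edgeR, adjusted p = 8.41e-06). Ifit3, of the same family, was at 6.39, 9.503 and 11.1 CPM in KO livers, against 8.93, 16.8 and 38.2 CPM in WT livers, and fell by 1.15 on the log2 scale ± 0.222 (SE, edgeR, adjusted p = 1.71e-04). In both the KO mice kept to the low end of the spread of WT mice. B2m, the light chain of class I molecules, fell by 0.59 on the log2 scale ± 0.0974 without overlap (SE, edgeR, adjusted p = 2.26e-05), and was not called with library size scaling. Tapbp, which loads peptides onto class I molecules and overlaps exons of Gm19412, rose by 0.65 ± 0.0875 (SE, edgeR, adjusted p = 1.73e-06).

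The authors' deposited table of ROTS statistics for KO against WT held 46 of the 49 genes. At a false discovery rate under 0.05 that table had 29 of them higher and 1 lower, where it had 22.1% of its 12820 genes higher and 18.9% lower. Of the 31 constitutive subunits, 27 were higher in the authors' deposited table, among them all 17 of the regulatory particle and 10 of the 14 of the core. Psma3, Psma4, Psma6 and Psmb1 were the 4 constitutive subunits that missed the threshold in the authors' deposited table, with false discovery rates of 0.242, 0.124, 0.187 and 0.0549. The authors' deposited enrichment table listed the proteasome complex (62 annotated genes) with a false discovery rate of 1.19e-04 and the regulatory particle (22 annotated genes) with 5.00e-04. The core complex (17 annotated genes) stood at 0.348 in the authors' deposited table. Of its 489 cellular component terms, 75 were under 0.05. Proteasome binding, a molecular function term, stood at 0.120 in the authors' deposited table. Among proteasomal catabolic process terms, the ubiquitin-independent term stood at 0.0429, and the next lowest at 0.775. These values come from the same libraries and are not independent of the counts above.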

How the data were processed

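Total RNA of 20 livers was sequenced on a Novaseq instrument, per the labels' protocols. The deposited count table holds raw fragment counts per gene, made with Rsubread on RefSeq genes of mm10, per the file names; HISAT2 2.0.5 and DESeq2 stand in the submitters' processing notes instead, and no source used here states the strand setting. No library set any fragment aside as mapping to several places, which alone does not show that such fragments were counted. They made up 3.34% ± 1.90 of mapped fragments in KO and 9.75% ± 3.74 in WT libraries (SD, n = 10 each), with overlapping ranges. KO_391 was the highest KO library at 8.51%. Fragments set aside as ambiguous averaged 4.34% in KO and 6.96% in WT libraries, of assigned and ambiguous fragments together. The part of these differences in the results was not tested. The deposited normalised signal equals CPM over TMM effective library size (largest relative deviation 5.22e-15), and the deposited RPKM equals that signal per kilobase of summed exon length (1.41e-13). The authors' deposited ROTS table gives log2 fold changes and p-values with false discovery rates, the deposited GO tables give false discovery rates and other numbers (annotated genes), and the authors did not state their background. Per-sample columns that match no sample's labels numbered 21 and were not used.

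Raw counts were tested with edgeR 4.0.16 (R 4.3.3; TMM, filterByExpr with a minimum count of 10 and total of 15, robust quasi-likelihood fit, genotype as the only term, Benjamini-Hochberg adjustment over 13670 genes). The filter left out 0.0858% of fragments. The test was tried on simulated data with few changed genes, as many raised as lowered, which cannot check the choice of scaling. Alternatives were library size scaling, DESeq2 size factors, upper-quartile factors, no filter, a stricter filter (1 CPM or more in 10 mice), DESeq2 1.42.0, limma-voom (limma 3.58.1) and each mouse left out in turn. The members, role groups and lists were chosen with earlier results of these data known. Named were the 6 catalytic subunits, activators and inhibitor, per other role group the 3 smallest adjusted p and the largest change among those called, Nfe2l1, Pomp and up to 4 genes per further list by adjusted p; others are marked where they appear. A few genes of these further lists are not reported here. Replicates are separate numbered mice, and no pair of the same genotype agreed within sampling noise (chi-square per degree of freedom 13.7 to 272 over 90 pairs).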

Additional observations from a re-analysis of the deposited data

Results flagged for a closer look

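In each group of 10 mice, the highest and lowest values were set against Dixon's 95% critical value of 0.466 for the gap to the nearest mouse over the range. Over 68 groups tested, 2 passed it, where chance flags about 1 in 20 groups. WT_406 had a Psmb2 level of 76.3 CPM, with the next WT mouse at 67.3 CPM. The same mouse was the highest WT liver for 11 of the 31 constitutive subunits and had the lowest ratio of regulatory to core genes. WT_415 had an immune share of Psmb8 in the Psmb8 and Psmb5 pair of 28.6%, with the next WT mouse at 21.6%.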

How the results depend on the processing

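All 31 constitutive subunits with a Psm name were called higher under all 7 other settings and with each of the 20 mice left out. With library size scaling, 0 genes of the family were lower, against 3 with TMM factors, and the family's median log2 fold change was 0.98, against 0.51. Among the genes named, that scaling turned the sign of Psmg1 (0.29), Psmb8 (0.27), Sem1 (0.27), Sel1l (0.18), Psmb9 (0.36), Psmb10 (0.27), Psme2 (0.37), Psmg2 (0.053), Psmd9 (0.15), Rps27a (0.19) and Uba1 (0.36). Without a turn of sign, it gained calls for Psme3 (0.57), Psma8 (0.97), Psmg3 (0.58), Psmg4 (0.66) and Psmd10 (0.55). In the same way it lost the calls of B2m (-0.11), Syvn1 (-0.19) and Ddi2 (-0.0089). That scaling raised the median of all genes by 0.47. Leaving out 1 mouse at a time gave 35 to 37 genes higher, 3 to 4 lower and a median of 0.49 to 0.58. Under the stricter filter Psma8 was not tested. No paired analysis was possible because the genotypes share no mouse number and the labels give no litter or batch. Batch and extraction day were not given in the sources used here and were not tested. Psma8 rests on about 1 CPM, so depth limits it.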
